A study of Hordeum vulgare with 18 samples.

Results

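miR168 is a conserved plant microRNA (miRNA), a class of short regulators that silence mRNAs by base pairing. Its known target is the mRNA of ARGONAUTE1, the protein that carries most plant miRNAs. DICER-LIKE 1 cuts the miRNA and its partner strand from the 5p and 3p arms of a hairpin precursor, and miR168 is then loaded into ARGONAUTE1 itself, so that in Arabidopsis the miRNA and its carrier form a feedback loop. The start of a miRNA sets its seed, the bases next to the 5′ end that take part in target pairing, and an end variant is a sequence from the same arm that begins or ends some bases away from the mature form. In Arabidopsis the 5′ base also helps to decide which argonaute takes up a small RNA, with U favoured by ARGONAUTE1.

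The miR168 sequences were chosen by name: each sequence with a name part MIR168, with or without a letter, in any of the 3 deposited tables was taken. These were 150 of 7252 sequences in any table, with 107 of 4750 sequences in the 1 h table, 100 of 4671 in the 3 h table and 101 of 4603 in the 6 h table, and 69 stood in all 3 tables. A sequence is listed in a table only where it had reads there, and the family was picked with earlier heat and control results of these libraries known. The adjusted p-values given here come from fits of whole tables and are not independent evidence for the family.

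The small RNAs came from shoots of 2-week-old plants of the spring barley line Rolap. Plants had been kept at 35.5 °C for 1, 3 or 6 h (heat at 1 h, heat at 3 h, heat at 6 h) or stayed at 21 °C for the same times (control at 1 h, control at 3 h, control at 6 h), with 3 biological replicates in each of the 6 groups and no other treatment or genotype. Heat and control at 1 h shared lane 1 and heat and control at 6 h shared lane 2, while at 3 h heat was on lane 1 and control on lane 2, so that at 3 h heat and lane cannot be told apart. A table held 1449374 to 3214221 counts per library, and 3 counts, the limit for a sequence with no read, corresponded to 0.0678 to 0.129 RPM, read counts scaled to the total of the library. Intervals and such limits cover counting error only. In whole shoots, fewer cells of a type and less RNA per cell cannot be told apart.

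The following sequences carry the results. They are written 5′ to 3′ as DNA, as in the deposited tables, with bases 2 to 8 from each sequence's own 5′ end (the seed) in capitals. Offsets count bases toward the 3′ end from the start and the end of the mature form of the same arm.
5p mature: tCGCTTGGtgcagatcgggac
5p, end +1: tCGCTTGGtgcagatcgggacc
5p, end -1: tCGCTTGGtgcagatcggga
5p, end -3: tCGCTTGGtgcagatcgg
5p, start +1: cGCTTGGTgcagatcgggac
5p, start +2: gCTTGGTGcagatcgggac
5p, start +2 and end +1: gCTTGGTGcagatcgggacc
5p, start -5 and end -5: cGGGCTCGcttggtgcagatc
3p mature: cCCGCCTTgcaccaagtgaat
3p, start +1: cCGCCTTGcaccaagtgaat
3p, end -1: cCCGCCTTgcaccaagtgaa
3p, end -2: cCCGCCTTgcaccaagtga
3p, start +4 and end +4: cCTTGCACcaagtgaatcgga
A move of the end leaves the seed as it is, and a move of the start changes it, as the capitals of 3p mature and 3p, start +1 show.

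The 5p and 3p mature forms, each of 21 nt, pair over 19 positions with 15 Watson-Crick and 2 G-U pairs and 2 mismatches, which leaves 2 bases over at each 3′ end, the usual shape of a duplex cut by a Dicer. The 5p mature form alone held 82.0% of the 3518369 miR168 counts, both mature forms together held 93.1% and the 8 most abundant sequences 99.4%. The remaining sequences were rare: 80 of the 150 had fewer than 10 counts in the 18 libraries together, and 26 had 1. By the authors' annotation 142 were precursor sequences, 5 mature 5′ and 3 mature 3′ sequences, so that most end variants of the mature arms carry the precursor label. They were 18 to 25 nt long, all without a mismatch to their annotated precursor. Variants with added bases that match no annotated precursor are therefore outside these tables. An added base that happens to match a precursor of another species cannot be told apart from a templated one.

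Sequences were placed by aligning them exactly to stretches grown from overlapping reads, 31 nt around the 5p and 47 nt around the 3p mature form. On this map 45 sequences lay on the 5p arm and 61 on the 3p arm, and the other 44, with 656 counts in all, lay on neither. The annotation named Aegilops tauschii, a wild relative of wheat, for 101 of the 150 sequences, while 7 with 52 counts in all were named from barley itself. None carried the name of another family. Sequences named from other species that differ from a mature form by a single base were rare: the mature 5′ form of Brassica rapa, which differs from the 5p mature form by A14G, counted from its 5′ end, had 185 counts or 0.641 per 10000 of it, and a precursor sequence of Zea mays with C12T relative to the 3p mature form had 55 counts or 1.42 per 10000.

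By seed, the 15 sequences that share the seed CGCTTGG of the 5p mature form held 84.7% of counts, and the 7 with the seed CCGCCTT of the 3p mature form held 11.5%. The 10 sequences with GCTTGGT, shifted by a base on the 5p arm, held 2.31%, the 9 with CGCCTTG, shifted by a base on the 3p arm, 0.803%, and in all there were 51 seeds.

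**Figure D1:**
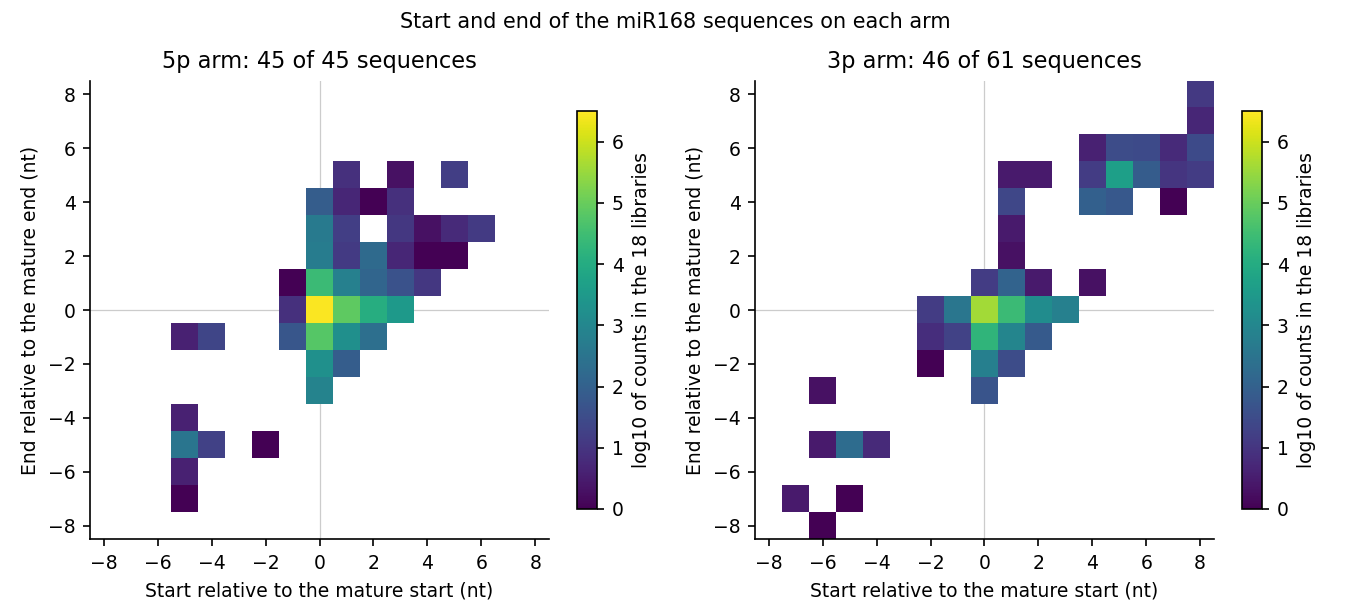
Counts of miR168 sequences by their start (x axis) and end (y axis), in nucleotides relative to the mature form of the 5p arm (left, 45 of 45 sequences) and the 3p arm (right, the 46 of 61 within 8 nt). Colour is the log10 of the counts summed over the 18 libraries, and the brightest cell in each panel is the mature form, with variants by 1 base at either end next to it.

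Across the libraries miR168 stood at 4021 to 10844 RPM and ranked 2 to 5 among 106 to 126 families with reads. The total was 4262, 5632 and 4776 RPM in heat at 1 h, against 5672, 6073 and 4918 RPM in control at 1 h. The 3 h total was 5590, 4600 and 5581 RPM in heat and 10844, 6861 and 5675 RPM in control. The heat libraries of 3 h thus lay below all control libraries, while the ranges overlapped at 1 h. At 6 h heat gave 7631, 9858 and 4021 RPM and control 6376, 6094 and 5748 RPM, with heat libraries both above and below the control range.

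The family total was not called at any time, where called means an adjusted p under 0.05 with edgeR's quasi-likelihood test and Benjamini-Hochberg adjustment over all families tested. Log2 fold changes of heat over control were 0.07 ± 0.19 (SE, adjusted p = 0.856) at 1 h, -0.67 ± 0.30 (adjusted p = 0.239) at 3 h and -0.08 ± 0.16 (adjusted p = 0.847) at 6 h. Of all families, 0% of 74 were called at 1 h (6 at an unadjusted p under 0.05, and 1 by DESeq2), 2.67% of 75 at 3 h and 16.2% of 74 at 6 h. Control 3 h replicate 1 stood apart, with 20.9% of its counts in miR168 against 5.85 to 10.9% in the other libraries, and without it the 3 h fold change of the total was -0.26 (adjusted p = 0.313). The direction at 1 h and at 6 h turned under other scalings.

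**Figure D2:**
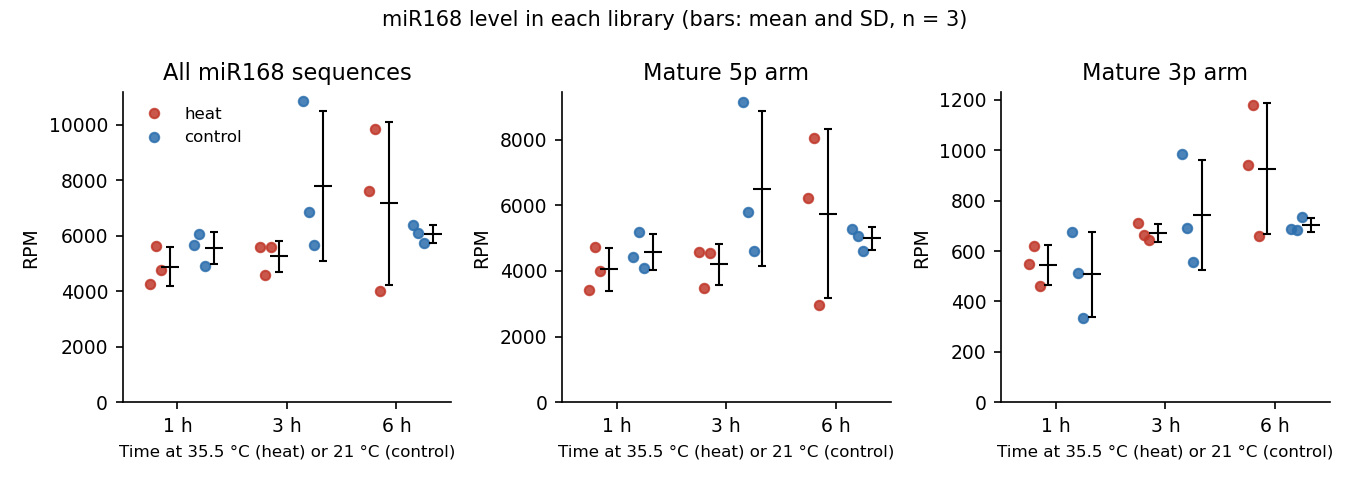
Level in RPM (y axes, from 0) of all miR168 sequences, the 5p mature form and the 3p mature form in heat (red) and control (blue) libraries at 1, 3 and 6 h, with mean and SD (n = 3). Control 3 h replicate 1, at 10844 RPM for the family, is the highest point of its panel, and heat 6 h spans 4021 to 9858 RPM.

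The mature forms themselves were not called. The 5p mature form, the strand that acts on ARGONAUTE1 mRNA, averaged 4057 ± 657 RPM in heat and 4574 ± 548 RPM in control at 1 h (SD, n = 3), with a log2 fold change of 0.08 ± 0.23 (SE, adjusted p = 0.938 by edgeR). At 3 h it averaged 4208 ± 624 RPM in heat and 6511 ± 2354 RPM in control (-0.73 ± 0.30, adjusted p = 0.216), and without control 3 h replicate 1 the fold change was -0.31. At 6 h it averaged 5747 ± 2578 RPM in heat and 4995 ± 345 RPM in control (-0.13 ± 0.19, adjusted p = 0.709). RPM and fold change differ in sign at 1 h and 6 h because RPM are scaled to the whole library and the fold change to the miRNA table.

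The 3p mature form, the partner strand, averaged 544 ± 79.1 RPM in heat and 507 ± 169 RPM in control at 1 h. It averaged 673 ± 35.8 RPM in heat and 744 ± 218 RPM in control at 3 h, and 927 ± 261 RPM in heat and 702 ± 27.99 RPM in control at 6 h. Its log2 fold changes were 0.34 ± 0.27, -0.24 ± 0.28 and 0.12 ± 0.11 at 1, 3 and 6 h (adjusted p = 0.740, 0.654 and 0.567 by edgeR), and without control 3 h replicate 1 that at 3 h was 0.10. For each 100 reads of the 5p mature form there were 16.0, 13.1 and 11.6 of the 3p mature form in heat at 1 h, against 15.2, 9.87 and 8.17 in control at 1 h. At 3 h there were 15.6, 18.97 and 14.1 in heat and 10.8, 12.0 and 12.1 in control. At 6 h there were 15.1, 14.7 and 22.3 in heat and 13.0, 13.5 and 15.9 in control. The partner strand was therefore relatively more abundant in all heat libraries than in all control libraries at 3 h, and the ranges overlapped at 1 h and 6 h.

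Some end variants were called, and whether their changes differ from those of the mature forms was not tested. The filter on low counts left 28 miR168 sequences to test at 1 h, 26 at 3 h and 25 at 6 h, of 740, 713 and 675 sequences. At 1 h 0 were called higher and 0 lower by edgeR (7 at an unadjusted p under 0.05, and 1 by DESeq2), beside 0.541% of all sequences called higher and 1.22% called lower. At 3 h 0 were called higher and 1 lower, beside 0.982% and 3.37% of all sequences. At 6 h 3 were called higher and 1 lower, beside 6.07% and 6.07% of all sequences. As the family was picked with these contrasts known, the shares are given for scale and nothing is read from them. Counts at an unadjusted p and counts by DESeq2, here and below, have no such share beside them. Nothing is read from these counts either. Of the 3 called higher at 6 h, 1 had reached the minimum count in heat libraries alone.

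Median log2 fold changes of the tested miR168 sequences were -0.07, -0.51 and 0.11 at 1, 3 and 6 h, beside 0.07, -0.08 and -0.003 for all tested sequences. Ranges of scaled counts did not overlap for 4 miR168 sequences higher in heat and 2 lower at 1 h, beside 8.78% and 7.84% of all sequences. They did not overlap for 0 higher and 10 lower at 3 h, beside 10.7% and 15.3%, and for 7 higher and 6 lower at 6 h, beside 16.6% and 16.6%. Of the miR168 sequences tested, 1 at 1 h and 2 at 3 h had reached the minimum count in control libraries alone. At 6 h 1 had done so in heat libraries alone. As these passed the filter through 1 group alone, the counts without overlap are given as a description.

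A fit of all 18 libraries on the 2720 sequences common to the tables gave the mean heat effect over 1 h and 6 h, the times at which heat and control shared a lane. In it 5 of 31 miR168 sequences were called higher and 3 lower, beside 3.75% and 4.37% of 961 sequences. Of these, 1 called higher had reached the minimum count in heat libraries alone and 1 called lower in control libraries alone. Each thus passed the filter only through the group in which it was higher, and both are given as a description. For the difference of the 6 h from the 1 h heat effect, 0 of 31 were called by edgeR (5 at an unadjusted p under 0.05, and 0 by DESeq2), beside 0% of all sequences, so that no miR168 sequence was shown to respond differently at the 2 times.

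**Figure D3:**
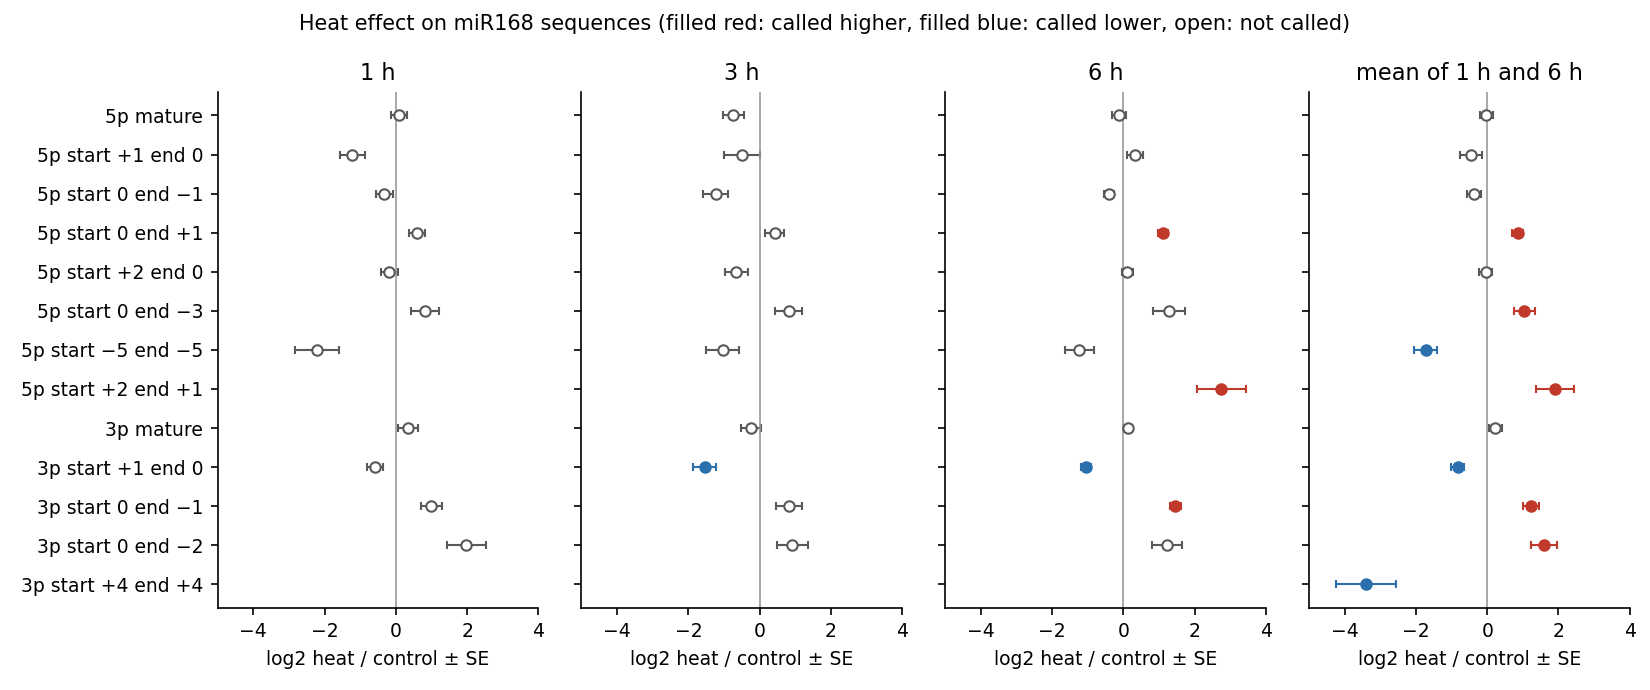
Log2 fold changes of heat over control with SE (x axes) for the named sequences of the 5p and 3p arms (rows, by arm and by abundance) at 1, 3 and 6 h and for the mean of 1 h and 6 h. Filled red points were called higher and filled blue points lower, and open points were not called. The mature forms lie between -0.13 and 0.34 at 1 h and 6 h. At each time 3p start +1 lies left of 0, and 3p end −1 and 5p end +1 lie right of 0.

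The 3p form with start +1, which lacks the first base of the mature form and so has another seed, was lower in heat. It had 30.1, 36.5 and 30.0 RPM in heat at 1 h, against 63.8, 62.0 and 46.4 RPM in control at 1 h. At 3 h it had 28.4, 27.7 and 23.7 RPM in heat and 100.2, 61.7 and 55.3 RPM in control. At 6 h it had 37.5, 40.8 and 25.6 RPM in heat and 56.9, 55.2 and 67.1 RPM in control. Every heat library thus lay below every control library of its time.

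The form fell at 3 h (-1.55 ± 0.33 on the log2 scale, adjusted p = 0.0287 by edgeR) and at 6 h (-1.06 ± 0.15, adjusted p = 0.00343), and on the mean of 1 h and 6 h (-0.83 ± 0.18, adjusted p = 0.00465), while at 1 h the value was -0.59 ± 0.23 (adjusted p = 0.358). The 3 h call was lost when any of the heat libraries (replicates 1, 2 and 3, adjusted p = 0.134, 0.121 and 0.105) or replicate 2 of the control libraries (adjusted p = 0.0656) was left out, and without control 3 h replicate 1 it held at -1.14 (adjusted p = 0.0101). The 6 h call was lost when implied library totals set the scale (-0.79, adjusted p = 0.116).

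Within the 3p arm, reads that start at +1 made up 5.13, 5.48 and 6.00% in heat at 1 h, against 8.504, 10.6 and 11.8% in control at 1 h. At 3 h they made up 3.75, 3.93 and 3.48% in heat and 8.99, 8.05 and 8.89% in control. At 6 h they made up 3.70, 3.26 and 3.64% in heat and 7.40, 7.31 and 8.09% in control. The shares do not depend on the scaling of a library, and the groups did not overlap at any of the 3 times. Their mean at 1 h was 5.54 ± 0.436% in heat and 10.3 ± 1.67% in control (SD, n = 3). The 3 h mean was 3.72 ± 0.228% in heat and 8.64 ± 0.512% in control, and at 6 h 3.53 ± 0.238% in heat and 7.60 ± 0.428% in control. With 3 libraries against 3 an exact two-sided permutation test cannot go below 0.1, and no test of the shares was made. The 95% Wilson intervals of single libraries were at most 0.605 percentage points wide to either side.

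The 3p forms that end early moved the other way. The form with end -1, whose deposited name is the mature MIR168a of Zea mays, had 36.7, 26.5 and 28.5 RPM in heat at 1 h, against 23.9, 19.3 and 11.01 RPM in control at 1 h. At 3 h it had 42.4, 46.0 and 27.7 RPM in heat and 29.5, 17.4 and 14.2 RPM in control. At 6 h it had 65.4, 72.9 and 42.5 RPM in heat and 18.6, 16.1 and 19.97 RPM in control. Heat lay above control without overlap at 1 h and 6 h, and at 3 h the lowest heat library lay below the highest control library.

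It rose at 6 h (1.45 ± 0.15, adjusted p = 0.00132 by edgeR) and on the mean of 1 h and 6 h (1.22 ± 0.22, adjusted p = 0.00129). Values at 1 h and 3 h were 1.00 ± 0.29 (adjusted p = 0.163) and 0.82 ± 0.37 (adjusted p = 0.266), and without control 3 h replicate 1 the form was called higher at 3 h as well (1.29, adjusted p = 0.0245). As a share of the 3p arm, reads that end at -1 averaged 5.27 ± 1.13% in the heat libraries of 1 h and 3.33 ± 0.281% in their controls. The averages were 5.31 ± 1.17% (heat) and 2.52 ± 0.243% (control) at 3 h and 5.99 ± 0.308% (heat) and 2.41 ± 0.174% (control) at 6 h, with no overlap at any of the 3 times.

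The still shorter 3p form with end -2 was rarer, with 1.58 ± 0.779 RPM in heat and 0.468 ± 0.343 RPM in control at 1 h and 1.31 ± 0.102 RPM in heat and 0.473 ± 0.201 RPM in control at 6 h. It rose on the mean of 1 h and 6 h (1.60 ± 0.37, adjusted p = 0.00728 by edgeR). Single times gave 1.98 ± 0.55, 0.92 ± 0.44 and 1.22 ± 0.43 (adjusted p = 0.148, 0.295 and 0.106), and its RPM did not overlap between heat and control at any of them. The 1 h value was called without control 1 h replicate 1 (2.77, adjusted p = 0.0238) and without the filter on low counts (1.97, adjusted p = 0.00447).

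On the 5p arm the form with end +1, of 22 nt, was higher in heat. It keeps the seed of the mature form, and miRNAs of this length are known in Arabidopsis to start the making of secondary small RNAs from a target. The form had 28.7, 29.4 and 35.4 RPM in heat at 1 h, against 22.1, 27.3 and 24.4 RPM in control at 1 h. At 3 h it had 55.0, 49.6 and 54.5 RPM in heat and 44.4, 37.6 and 29.7 RPM in control. At 6 h it had 93.5, 143 and 69.4 RPM in heat and 40.0, 36.4 and 38.01 RPM in control. All heat libraries lay above all control libraries of their time.

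The form rose at 6 h (1.12 ± 0.14, adjusted p = 0.00260 by edgeR) and on the mean of 1 h and 6 h (0.85 ± 0.16, adjusted p = 0.00129), with 0.60 ± 0.23 (adjusted p = 0.337) at 1 h and 0.42 ± 0.27 (adjusted p = 0.432) at 3 h. The 6 h call held in all 13 alternatives, with fold changes of 1.06 to 1.42. As a share of the 5p arm, reads that end at +1 made up 0.811, 0.604 and 0.864% in heat at 1 h, against 0.479, 0.512 and 0.572% in control at 1 h. At 3 h they made up 1.17, 1.38 and 1.17% in heat and 0.468, 0.640 and 0.625% in control. At 6 h they made up 1.46, 1.72 and 2.20% in heat and 0.731, 0.693 and 0.804% in control. The groups stood apart at each time.

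Over the whole family, sequences of 22 nt averaged 0.656 ± 0.112% of counts in the heat libraries of 1 h and 0.462 ± 0.0514% in their controls. The averages were 1.04 ± 0.0669% (heat) and 0.506 ± 0.0709% (control) at 3 h and 1.48 ± 0.256% (heat) and 0.645 ± 0.0357% (control) at 6 h, without overlap at any time. Those of 21 nt made up 94.2 ± 0.977% (heat) and 91.6 ± 1.94% (control) at 1 h, 92.9 ± 2.21% (heat) and 93.1 ± 1.74% (control) at 3 h, and 92.7 ± 2.18% (heat) and 94.03 ± 0.646% (control) at 6 h, and these overlapped at each time.

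**Figure D4:**
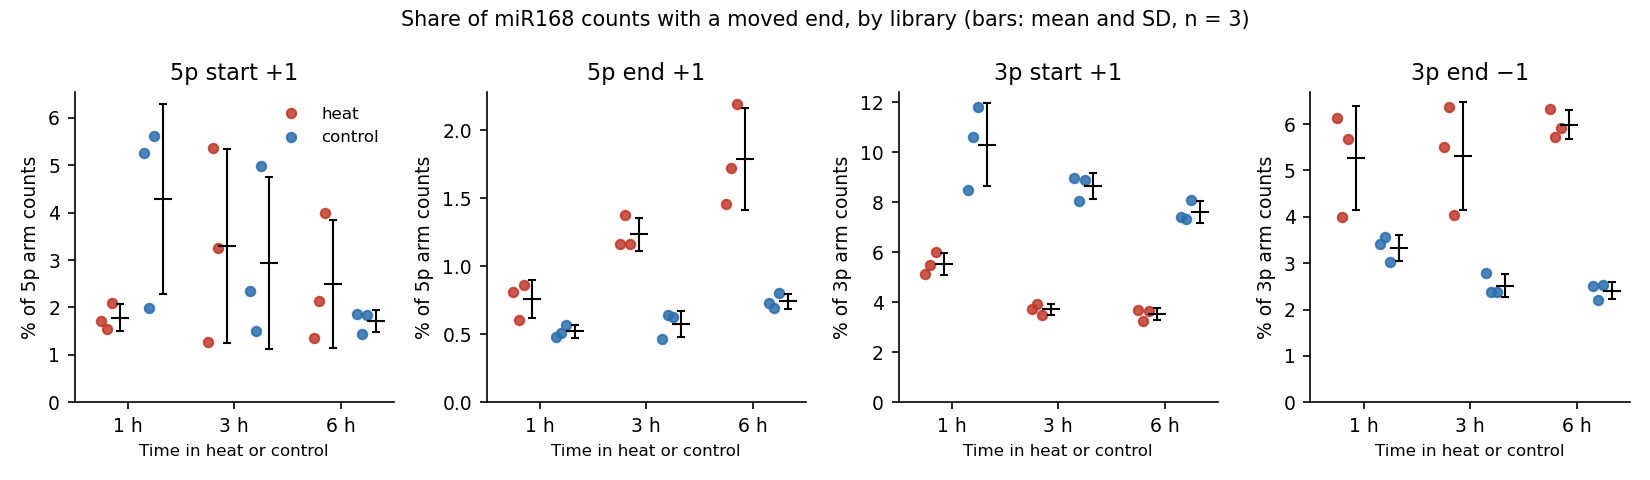
Share of the counts of an arm (y axes, in percent, from 0) whose start or end lies 1 base from the mature form, in heat (red) and control (blue) libraries at 1, 3 and 6 h, with mean and SD (n = 3). Heat lies above control for 5p end +1 and 3p end −1 and below it for 3p start +1 at each time, while 5p start +1 overlaps.

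The most abundant variant of all, the 5p form with start +1, varied widely between replicates. It had 59.5, 74.0 and 85.9 RPM in heat at 1 h, against 249, 105 and 246 RPM in control at 1 h. At 3 h it had 58.7, 199 and 155 RPM in heat and 220, 87.6 and 245 RPM in control. At 6 h it had 85.5, 177 and 127 RPM in heat and 101, 74.6 and 85.9 RPM in control. Heat was below control at 1 h without overlap in RPM, and the ranges overlapped at 3 h and 6 h.

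Log2 fold changes of this form were -1.22 ± 0.35, -0.50 ± 0.50 and 0.33 ± 0.23 at 1, 3 and 6 h (adjusted p = 0.162, 0.612 and 0.415 by edgeR). DESeq2 called the 1 h value lower (-1.26, adjusted p = 0.0259), as did the fits with implied library totals, without the filter on low counts and without control 1 h replicate 2. Between 1 h and 6 h the effect differed by 1.69 ± 0.63 (adjusted p = 0.418). As a share of the 5p arm, reads that start at +1 ran from 1.27 to 5.36% in heat and from 1.45 to 5.61% in control libraries. Heat and control shares overlapped at 1, 3 and 6 h.

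The other abundant 5p variants were not called. The form with end -1 averaged 79.0 ± 13.4 RPM in heat and 117 ± 22.3 RPM in control at 1 h. It averaged 71.03 ± 2.31 RPM in heat and 154 ± 66.3 RPM in control at 3 h, and 104 ± 14.7 RPM in heat and 117 ± 11.5 RPM in control at 6 h. Its fold changes were -0.32 ± 0.24, -1.23 ± 0.35 and -0.42 ± 0.14 (adjusted p = 0.733, 0.0994 and 0.0902 by edgeR), and DESeq2 called the 3 h value lower (adjusted p = 0.0269), as did the joint fit, the fit without a filter on low counts and, at -0.72, the fit without control 3 h replicate 1. The form with start +2 averaged 15.2 ± 2.35 RPM in heat and 20.4 ± 1.88 RPM in control at 1 h. It averaged 16.6 ± 1.69 RPM in heat and 24.3 ± 6.83 RPM in control at 3 h, and 22.4 ± 6.98 RPM in heat and 17.02 ± 0.980 RPM in control at 6 h. Its fold changes were -0.18 ± 0.25, -0.65 ± 0.31 and 0.11 ± 0.15 (adjusted p = 0.887, 0.297 and 0.689).

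Of the rare 5p variants, the form with end -3, of 18 nt, had 2.41 ± 0.637 RPM in heat and 0.879 ± 0.294 RPM in control at 6 h, and rose on the mean of 1 h and 6 h (1.04 ± 0.30, adjusted p = 0.0325 by edgeR). That call was lost in 7 of 22 alternatives, each the omission of 1 library. The 6 h value was not called in the main fit, nor in 10 of 13 alternatives. It was called only without heat 6 h replicate 2 (1.57, adjusted p = 0.0357 by edgeR), on implied library totals (1.45, adjusted p = 0.0429) and without the filter on low counts (1.32, adjusted p = 0.0443). The form with start +2 and end +1, of 20 nt, summed to 48 counts over the heat libraries of 6 h, against 5 over their controls. It passed the filter through heat libraries alone, so that its fitted values of 2.75 ± 0.68 at 6 h (adjusted p = 0.0332 by edgeR) and 1.91 ± 0.53 on the mean of 1 h and 6 h (adjusted p = 0.0260) are given as a description. Without the filter the adjusted p were 0.0996 and 0.127, and the calls were lost in 8 of 12 and 9 of 22 alternatives, among them the omission of each single library of 6 h for the 6 h call.

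Some sequences kept a length of 21 nt while both ends lay by the same number of bases from the mature form. The 5p form with start -5 and end -5 summed to 13 counts over the heat libraries of 1 h, against 67 over their controls. Heat gave 39 counts and control 83 at 3 h, while at 6 h heat gave 48 and control 84. Its RPM were lower in every heat library than in every control library of its time, and it fell on the mean of 1 h and 6 h (-1.72 ± 0.33, adjusted p = 0.00184 by edgeR). Single times gave -2.21 ± 0.62, -1.04 ± 0.46 and -1.24 ± 0.40 (adjusted p = 0.148, 0.243 and 0.0840). In the 1 h fit the form passed the filter through control libraries alone, so that its value there is given as a description. In the fit of all 18 libraries, 6 heat and 9 control libraries reached the minimum count. That fit gave a 1 h value of -2.28 (adjusted p = 0.0130 by edgeR). As the heat libraries of 1 h had not reached the minimum count in the 1 h fit, this value too is given as a description. The mean of 1 h and 6 h includes the 1 h libraries and shares this limit in part.

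The 3p form with start +4 and end +4 was close to absent from heat libraries, with 1 count over the heat libraries of 1 h against 29 over their controls. Heat gave 2 counts and control 32 at 3 h, while at 6 h heat gave 6 and control 27. It passed the filter in no table of a single time and in the fit of all 18 libraries through control libraries alone. Its adjusted p on the mean of 1 h and 6 h (0.0115 by edgeR, 0.0108 without the filter) is therefore given as a description. As several heat libraries had 0 counts, its fitted fold change of -3.41 depends on the prior count and is no bound.

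Grouped by the kind of end, all 3 tested 5p forms shortened at the start and not at the end had fold changes below 0 at 1 h and at 3 h and above 0 at 6 h, and none was called. Both 3p forms shortened at the end and not at the start were above 0 at each time, with 1 called higher at 6 h and 2 on the mean of 1 h and 6 h. Of the 3 such 3p forms shortened at the start, those with start +2 and start +3 were not called, so that the call is of start +1 alone, and whether these forms differ from each other was not tested.

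The same 1-base changes of ends were measured for other mature sequences of at least 100 RPM, the most abundant of each family name and arm. The measure was the log2 ratio of a variant to its mature sequence in heat minus that in control. A variant needed a mean of at least 10 counts and reads in every library of a time. Variants absent from a library are thus outside this comparison. For start +1 the 3p arm of miR168 stood at -0.97, -1.29 and -1.17 at 1, 3 and 6 h, while the 10, 11 and 12 other sequences lay between -0.32 and 0.30, so that 0 of them lay as low at any time. For end -1 the 3p arm stood at 0.67, 1.07 and 1.33, beside medians of 0.21, 0.20 and 0.20, with 2 of 9, 2 of 11 and 2 of 10 others higher. For end +1 the 5p arm stood at 0.52, 1.11 and 1.27, beside medians of 0.38, 0.44 and 0.36, with 2 of 8, 0 of 9 and 1 of 8 others higher. The 5p arm did not keep 1 direction for start +1, at -1.19, 0.12 and 0.44, below all 10 others at 1 h and above all 12 at 6 h. Its heat and control ratios overlapped at each of these times, so that nothing is read from these ranks. For end -1 the 5p arm stood at -0.38, -0.46 and -0.26, below every other sequence at each time. Its heat and control ratios overlapped at 1 h and 6 h. At 3 h, where heat and lane cannot be told apart, MIR9662 lay close to it at -0.45. These comparisons are descriptions with no test, as the variants of miR168 had been picked.

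**Figure D5:**
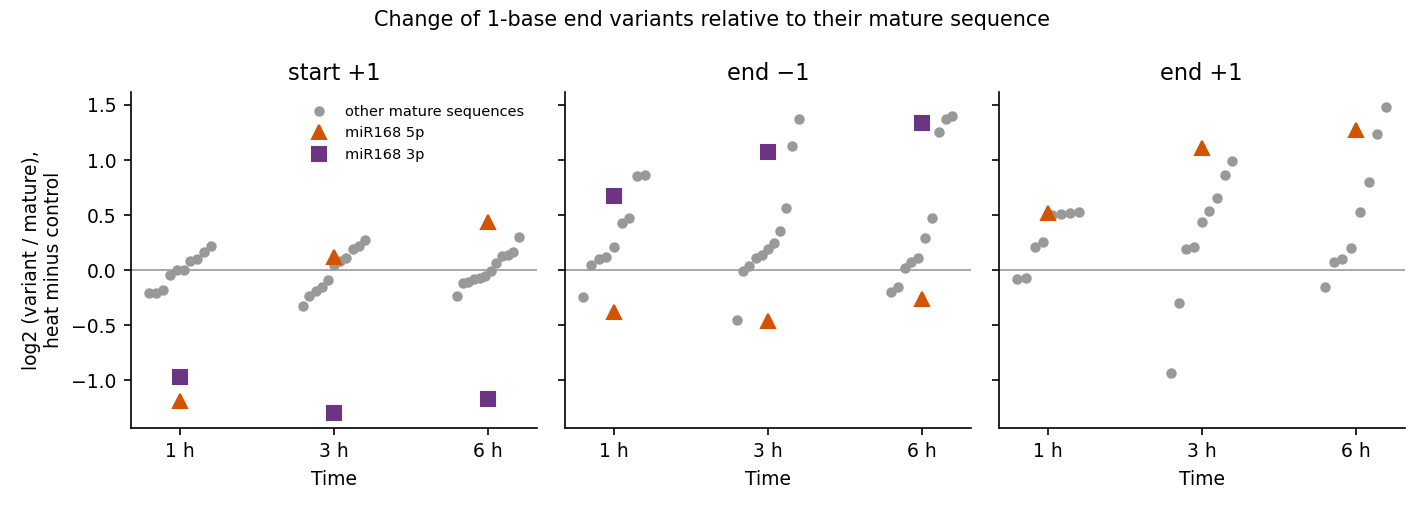
Log2 ratio of a 1-base end variant to its mature sequence, heat minus control (y axis), at 1, 3 and 6 h for start +1, end −1 and end +1. Grey points are mature sequences of other families, triangles the 5p and squares the 3p arm of miR168. For start +1 the squares lie at -0.97 to -1.29, the triangles between -1.19 and 0.44 and the grey points between -0.32 and 0.30, while for both kinds of end miR168 lies among or near the highest grey points, except for 5p end −1, which lies below the lowest. Heat and control ratios overlapped for 5p start +1 at each time and for 5p end −1 at 1 h and 6 h.

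Across the 18 libraries the family levels most like that of miR168, by Pearson's r of log2(RPM + 1) among 35 families of at least 10 RPM, were those of MIR393 (r = 0.88, Spearman's rho 0.78), MIR171 (0.77 and 0.73), MIR408 (0.75 and 0.75), MIR1432 (0.74 and 0.63) and MIR394 (0.64 and 0.69). All levels share the library and its depth. Without control 3 h replicate 1 and heat 6 h replicate 2, the libraries farthest from the median, r was 0.73, 0.55, 0.56, 0.46 and 0.41. The other families of the silencing machinery were at the limit of detection: miR162, which targets the DICER-LIKE 1 mRNA, summed to 7 counts over all heat libraries and 15 over all control libraries, and miR403, known in Arabidopsis to target the ARGONAUTE2 mRNA, to 1 count over all heat libraries and 2 over all control libraries. None of their sequences could be tested at any time.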

How the data were processed

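Small RNA was sequenced in 18 libraries, and groups, times and lanes were taken from the labels. Per the file headers, the authors tallied distinct sequences and matched them to known plant precursors. The deposited counts are whole numbers of reads. The deposited RPM equal the count times 1 constant per library, which implies totals of 23280481 to 44219180 reads. The tables' 18 further columns of expression values per library were not used. Tool names and the annotation release are not stated in the labels or headers, no genome was used, and 1 row without content was left out.

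Counts were tested in whole tables with edgeR 4.0.16 (R 4.3.3) by quasi-likelihood F tests with Benjamini-Hochberg adjustment, TMM factors of 0.815 to 1.27 and filterByExpr (at least 10 counts, 15 in total). Each time was fitted on its 6 libraries, and the 2720 common sequences on all 18. DESeq2 1.42.0 was an alternative. Steps were tested on simulated data. Python 3.11.15, pandas 2.3.3, statsmodels 0.14.6 and matplotlib 3.10.9 gave shares, 95% Wilson intervals and figures.

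Members and lists were chosen with earlier results of these data known. Named are the 5 most abundant sequences of each annotated class, each called sequence, and neighbours by 1 base of at least 10 RPM. Replicates differed by a chi-square of 17.7 to 415 per degree of freedom, so none were copies. They are biological replicates per the labels. The p-values weigh the difference of heat and control against the spread between replicates, which the fits estimate partly from other sequences. The other alternatives were RLE factors, library size scaling, implied library totals, other filters, 1 fit of all libraries, omission of the 3 h groups for the mean over 1 h and 6 h, family totals without the most abundant sequence or over the mature arms, and omission of each library.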

Additional observations from a re-analysis of the deposited data

How the results depend on the processing

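The called single-sequence results, 13 over all times and the mean, kept their direction in each of 240 alternatives and their call in 211, and the losses are those of 3p start +1, 5p start +2 end +1 and 5p start 0 end -3 named above. Included are 5p start +2 end +1 at 6 h and on the mean (12 and 22 alternatives) and 3p start +4 end +4 on the mean (22). These passed the filter through heat or control libraries alone, so that their kept direction is given as a description. Over both called and not called single sequences, the direction turned in 8 of 748 alternatives. These were the 5p mature form at -0.17 (1 h) and 0.20 (6 h) on implied library totals, and values with 1 library left out. In these the 5p mature form ran from -0.040 to 0.19 at 1 h, from -0.22 to 0.072 at 6 h and from -0.11 to 0.047 on the mean of 1 h and 6 h, the 3p mature form from -0.41 to 0.10 at 3 h and 5p start +2 from -0.10 to 0.042 on the mean. Implied library totals shifted the median of all sequences by -0.24 at 1 h and 0.27 at 6 h, and scaling by table size shifted it by -0.21 at 3 h.

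At 1 h, where 0 miR168 sequences were called, DESeq2, implied library totals and the joint fit of 18 libraries called 1 each and the fit with no filter on low counts called 2, with 0 to 1 on leaving out a library. At 3 h, against 1 called, DESeq2, no filter and the joint fit called 3 each, with 0 to 3 on leaving out a library (3 without control 3 h replicate 1). At 6 h 3 to 5 were called throughout, and on the mean 6 to 9. The share of all sequences called under each of these settings is not given here, so that nothing is read from these counts. The 1 h family total turned to -0.18 on implied library totals, -0.064 with DESeq2, -0.00087 without the most abundant sequence and -0.0018 in the joint fit, and ran from -0.043 to 0.16 on leaving out a library. The 6 h total turned to 0.24 on implied library totals and 0.12 without the most abundant sequence, and ran from -0.15 to 0.083 on leaving out a library. The causes of these turns were not tested.

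Without the most abundant sequence, which by construction shrinks the 5p arm, differences of heat minus control in percentage points were -13.8 at 1 h and 1.36 at 6 h for the 5p arm, -16.8 and 2.51 for 5p start +1, and 7.96, 10.1 and 12.9 at 1, 3 and 6 h for 5p end +1. With all sequences the 5p arm differed by -2.08 at 1 h and -2.03 at 6 h, so that its 6 h difference changed sign. For 5p start +1 the values were -2.50 and 0.79, and for 5p end +1 0.24, 0.66 and 1.05. No paired analysis was possible because the labels give heat and control plants no shared replicate numbers. Rare variants of a few counts per library are limited by depth, and folds of such forms are read from counts only.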
